A study of Mus musculus with 12 samples.

Results

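The genes for TGF-β ligands and their receptors were followed in mouse bone marrow mesenchymal stem cells (MSCs), to see whether added TGF-β1 changed the transcripts of its own family and whether supernatants of myeloid-derived suppressor cells (MDSCs) altered that response. The 10 genes were picked by name from the 55401 genes of the expression table. They are the ligand genes *Tgfb1*, *Tgfb2*, *Tgfb3* and *Inhba*, the receptor genes *Tgfbr1*, *Tgfbr2* and *Acvr1*, the coreceptor genes *Tgfbr3* and *Eng*, and the pseudoreceptor gene *Bambi*. Of these, 9 were among the 12016 genes that passed the filter of at least 1 FPKM (fragments per kilobase of transcript, scaled to the mapped fragments of the library, so a level per length) in at least 3 of the 12 libraries. *Eng* did not pass.

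The cells were purchased C57BL/6 bone marrow MSCs. Each of the 4 groups had 3 poly(A) RNA libraries. Control MSCs were untreated, and the TGF-β1 group received TGF-β1. In the TGF-β1/M-MDSC supernatant group and the TGF-β1/G-MDSC supernatant group, TGF-β1 was given together with culture supernatant of monocytic (M) or granulocytic (G) MDSCs, which had been induced from C57BL/6 bone marrow with GM-CSF and IL-6, sorted and cultured at 500000 cells/mL. The labels give neither dose nor time for the sequenced cells. In the differentiation assay with the same groups, TGF-β1 was used at 5 ng/mL for 24 h. No group received supernatant without TGF-β1, and none received TGF-β1 in MDSC medium that had held no cells, so products of MDSCs and their medium cannot be told apart. The labels do not say that the 3 libraries of a group came from separate cultures, so p-values measure only the spread between these libraries.

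TGF-β is secreted in a latent complex, and once freed it binds TGF-β receptor II, a kinase that phosphorylates TGF-β receptor I, which in turn phosphorylates Smad2 and Smad3. Coreceptors present the ligand to this pair or hold it away, and pseudoreceptors occupy the complex without a kinase. In mesenchymal cells the pathway is known for driving matrix production and the myofibroblast state, and TGF-β1 is known in many cell types to raise transcription of its own gene.

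The libraries held from 73977669 to 84565450 counts. All 7 MSC surface markers were detected in every library, 6 of them at 1 FPKM or more throughout. *Itgb1*, *Cd44* and *Ly6a* (CD29, CD44 and Sca-1) had medians of 251, 38.8 and 243 FPKM in control MSCs. *Thy1* had a control median of 4.26 FPKM, and *Nt5e* (CD73) lay under the filter level in control MSCs, at 0.321 to 0.505 FPKM. The median of *Ly6a* was 16.7 FPKM with TGF-β1, 92.1 FPKM with M-MDSC and 68.4 FPKM with G-MDSC supernatant. With TGF-β1 alone the median of *Pdgfra* was 4.92 against 13.2 FPKM in control MSCs, and that of *Pdgfrb* was 44.2 against 32.1 FPKM. *Eng*, which encodes the textbook MSC marker CD105, lay under 1 FPKM throughout. The 7 endothelial markers summed to between 0.331 and 0.662 FPKM in each library. The 10 kidney tubule markers summed to between 29.3 and 30.9 FPKM in control MSCs, nearly all of it *Aqp1*, to between 4.67 and 4.84 FPKM with TGF-β1 alone, to 36.9, 45.8 and 108 FPKM with M-MDSC supernatant and to 72.7, 84.0 and 84.1 FPKM with G-MDSC supernatant. Values of these markers stand beside the supernatant results below.

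Positions are those of the table, on GRCm38. *Tgfb1* lies at chr7:25687002-25705077 and *Inhba* at chr13:16011851-16031621, both on the plus strand. *Tgfb2* lies at chr1:186622792-186705989 and *Tgfb3* at chr12:86056745-86079041, both on the minus strand. The receptor genes are *Tgfbr1* at chr4:47353222-47414931 on the plus strand, and *Tgfbr2* at chr9:116084293-116175360 and *Acvr1* at chr2:58388644-58566828 on the minus strand. The coreceptor genes are *Tgfbr3* at chr5:107106570-107289629 on the minus strand and *Eng* at chr2:32646595-32682658 on the plus strand.

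Promoters of 3 genes are shown because their transcripts had large responses to TGF-β1 in opposite directions: *Tgfb1* and *Inhba* rose and *Tgfbr2* fell. Each is the 250 bases before the RefSeq start on GRCm38.p6, read 5′ to 3′ on the gene's strand, with matches to the searched motifs in capitals.
Tgfb1, chr7:25686752-25687001, plus strand: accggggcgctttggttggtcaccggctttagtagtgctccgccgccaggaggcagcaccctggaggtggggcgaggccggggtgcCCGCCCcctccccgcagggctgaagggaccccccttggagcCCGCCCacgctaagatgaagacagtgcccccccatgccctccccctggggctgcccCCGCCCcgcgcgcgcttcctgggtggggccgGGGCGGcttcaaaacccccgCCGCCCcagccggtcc
Inhba, chr13:16011601-16011850, plus strand: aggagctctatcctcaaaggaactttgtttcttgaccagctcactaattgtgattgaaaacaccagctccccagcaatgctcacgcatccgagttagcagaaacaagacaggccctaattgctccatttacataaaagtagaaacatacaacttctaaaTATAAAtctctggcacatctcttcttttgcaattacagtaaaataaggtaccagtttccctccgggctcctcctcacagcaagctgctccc
Tgfbr2, chr9:116175364-116175613, minus strand: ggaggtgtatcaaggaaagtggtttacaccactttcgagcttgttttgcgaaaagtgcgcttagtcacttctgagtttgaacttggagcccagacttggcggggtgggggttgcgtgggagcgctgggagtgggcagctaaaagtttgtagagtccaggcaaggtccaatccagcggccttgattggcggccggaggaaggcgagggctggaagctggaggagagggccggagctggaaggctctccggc
On both strands, 5 motifs were searched: the Smad-binding CAGA box (CAGACA), the AP-1 site (TGANTCA), the cAMP response element (TGACGTCA), the GC box (GGGCGG) and the TATA box (TATAAA). Among 32817 mouse promoter windows of the same length, these letters occurred in 17.1%, 6.75%, 1.55%, 32.7% and 12.4%, respectively. The *Tgfb1* promoter held 5 GC boxes, 1 on the gene's own strand and the others as CCGCCC, and 75.2% of its bases were G or C, against a median of 52.4% over all windows. The *Inhba* promoter had 43.2% G or C and 1 TATA box match, whose first base lay 91 bases before the start. No match was found in the *Tgfbr2* window, with 58.4% G or C. Windows were at hand for 7 of the 10 genes, all but *Tgfb3*, *Tgfbr3* and *Bambi*. A CAGA box match occurred in the *Tgfb2* window and in 1 of the 2 *Tgfbr1* windows. Such matches describe the letters and do not show that a factor binds.

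In control MSCs, the transcripts of the type II receptor and of betaglycan were more abundant per length than those of the 3 TGF-β isoforms. *Tgfbr2* had the highest level at 36.8 ± 0.613 FPKM (SD, n = 3), followed by *Inhba* at 28.9 ± 3.04, *Tgfbr3* at 23.7 ± 1.37, *Tgfb3* at 10.2 ± 0.684 and *Acvr1* at 8.32 ± 1.04 FPKM. *Tgfbr1* at 4.77 ± 0.37, *Tgfb1* at 3.61 ± 0.294, *Tgfb2* at 1.92 ± 0.131, *Bambi* at 1.68 ± 0.229 and *Eng* at 0.766 ± 0.123 FPKM were lower. Neighbours in this order did not overlap across the 3 control libraries, except *Tgfb2* and *Bambi*. With TGF-β1 the order changed, and *Inhba* at 88.8 ± 8.13 FPKM stood far above *Tgfbr2* at 17.6 ± 0.488 FPKM. *Tgfb3*, *Tgfb1* and *Acvr1* came next at 15.97 ± 1.04, 13.7 ± 1.82 and 11.4 ± 1.62 FPKM, and neighbours among these 3 overlapped. *Tgfbr3*, at 3.76 ± 0.691 FPKM, then overlapped *Tgfbr1* at 4.18 ± 0.332 FPKM. In both supernatant groups, all libraries had more *Tgfbr3* than *Tgfbr1*.

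**Figure D1:**
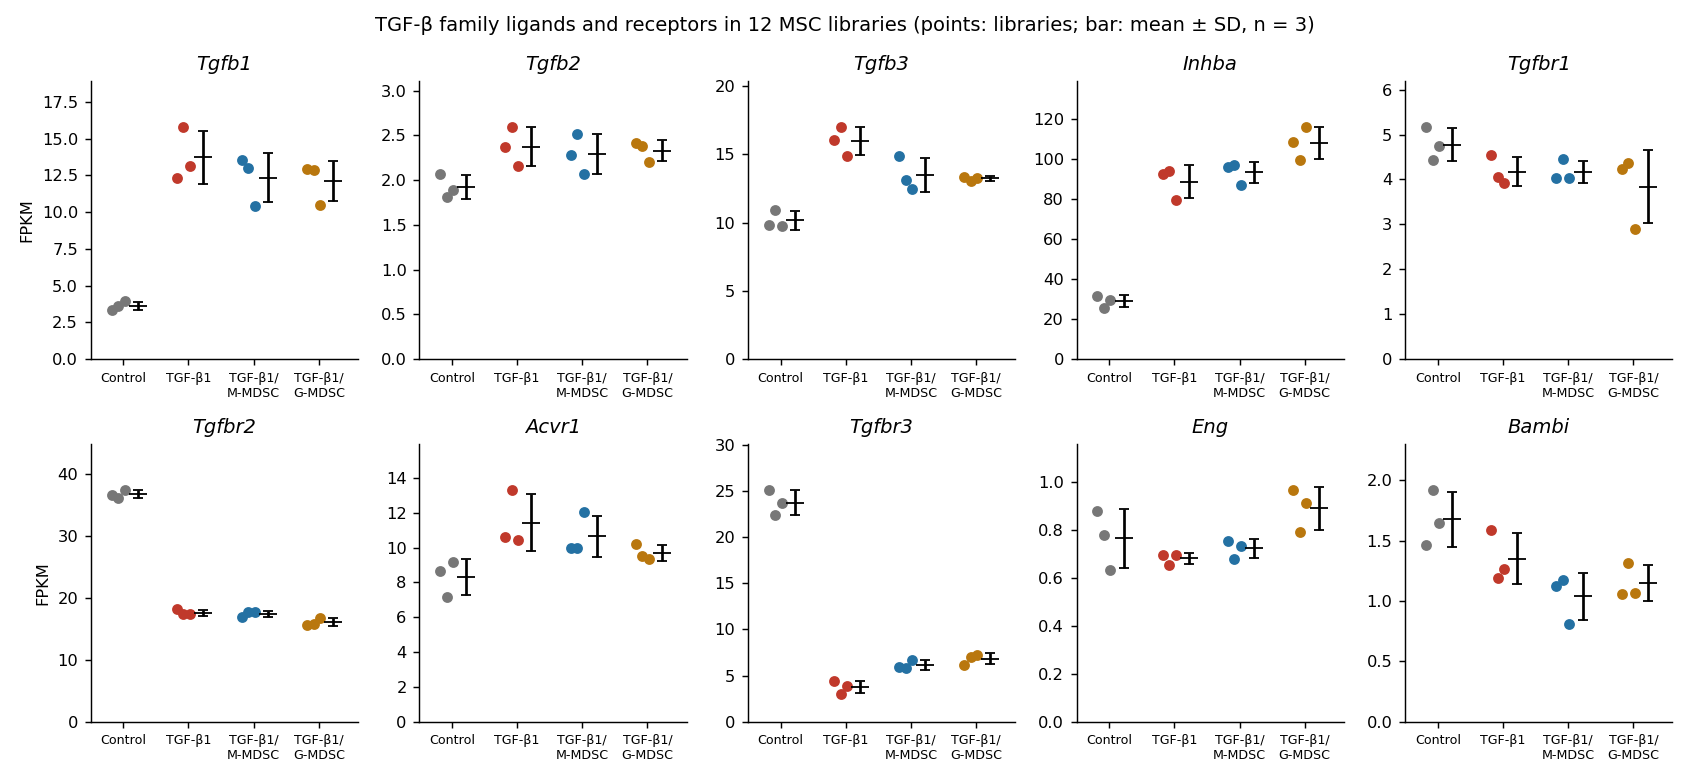
Level of each gene in FPKM (vertical axes, from 0, a separate scale for each gene) in the 3 libraries of each group, with points for libraries and bars for the mean ± SD. *Tgfb1* and *Inhba* were higher in all 9 libraries that received TGF-β1 than in control MSCs, *Tgfbr2* and *Tgfbr3* were lower in all 9, and *Eng* stayed under 1 FPKM.

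The first comparison asked whether TGF-β1 alone changed the family in MSCs. Of the 9 genes tested, 7 changed at an adjusted p under 0.05, with 5 higher (*Tgfb1*, *Tgfb2*, *Tgfb3*, *Inhba* and *Acvr1*) and 2 lower (*Tgfbr2* and *Tgfbr3*), whereas *Tgfbr1* and *Bambi* did not pass. Among all genes tested, 34.0% passed, 16.1% higher and 17.9% lower, which is 1929 and 2153 genes against 1474 and 2724 by library size alone. The median log2 fold change of the 9 genes was 0.36, against 0.000478 over all genes, and the median size regardless of sign was 0.71 against 0.20. The FPKM ranges of the groups did not overlap for 46.7% of all genes. The 3 haematopoietic stem and progenitor markers summed to between 69.4 and 75.2 FPKM in control MSCs and between 20.2 and 24.4 FPKM with TGF-β1, most of it *Cd34* (medians 63.0 and 16.9 FPKM), whereas *Kit* was at most 0.0117 FPKM in every library. Their part in the falls of *Tgfbr2* and *Tgfbr3* was not tested.

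*Tgfb1*, which encodes the isoform that was added as protein, had 3.33, 3.58 and 3.92 FPKM in the control libraries. With TGF-β1 it had 12.3, 15.8 and 13.1 FPKM, so every treated library exceeded every control library. The log2 fold change was 1.98 with a standard error of 0.13, a 3.95-fold rise (edgeR adjusted p = 9.5e-07). By the size of its change the gene stood 284th among the 12016 tested.

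*Inhba* encodes the βA chain of activin A, a ligand that uses activin receptors to reach the same Smad2 and Smad3. Its control libraries were at 31.6, 25.6 and 29.5 FPKM, and the TGF-β1 libraries were at 92.8, 94.1 and 79.4 FPKM, without overlap. The fitted rise was 3.20-fold, a log2 fold change of 1.68 with a standard error of 0.094 (edgeR adjusted p = 2.35e-07).

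*Tgfb3*, the most abundant TGF-β isoform in control MSCs, had 9.82, 10.96 and 9.74 FPKM without and 16.03, 16.99 and 14.9 FPKM with TGF-β1. All 3 treated libraries lay above the controls, and the rise was 1.63-fold (log2 fold change 0.71, standard error 0.078, edgeR adjusted p = 4.01e-05). The gene shares its end with *Ttll5* on the opposite strand, which had 0.897 to 1.58 FPKM, and whether counting used strand is not given in the sources used here. *Tgfb2*, the isoform that depends most on betaglycan for receptor binding, had 2.07, 1.81 and 1.88 FPKM in control MSCs. Its TGF-β1 libraries had 2.37, 2.59 and 2.16 FPKM, which was above the controls by a narrow margin. The rise of 1.29-fold (log2 fold change 0.36, standard error 0.095) had an edgeR adjusted p of 0.0129. That p was 0.0546 without control replicate 2 and 0.0552 without TGF-β1 replicate 2, and the adjusted p ranged from 0.00339 to 0.0552 over all alternatives.

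The isoforms did not rise in equal measure, and the makeup of the 3 TGF-β transcripts shifted. Their summed level was 15.7 ± 0.587 FPKM in control MSCs and 32.1 ± 2.85 FPKM with TGF-β1 (SD, n = 3). *Tgfb1* made up 23.0% ± 1.91 of this sum in control MSCs and 42.7% ± 2.37 with TGF-β1. The share of *Tgfb3* was 64.7% ± 2.18 without and 49.9% ± 2.12 with treatment, and that of *Tgfb2* was 12.3% ± 1.26 and 7.40% ± 0.296. None of the 3 shares overlapped between these groups. *Tgfb3* had the largest share in the group means with and without treatment. These shares describe levels per length and were not tested.

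**Figure D2:**
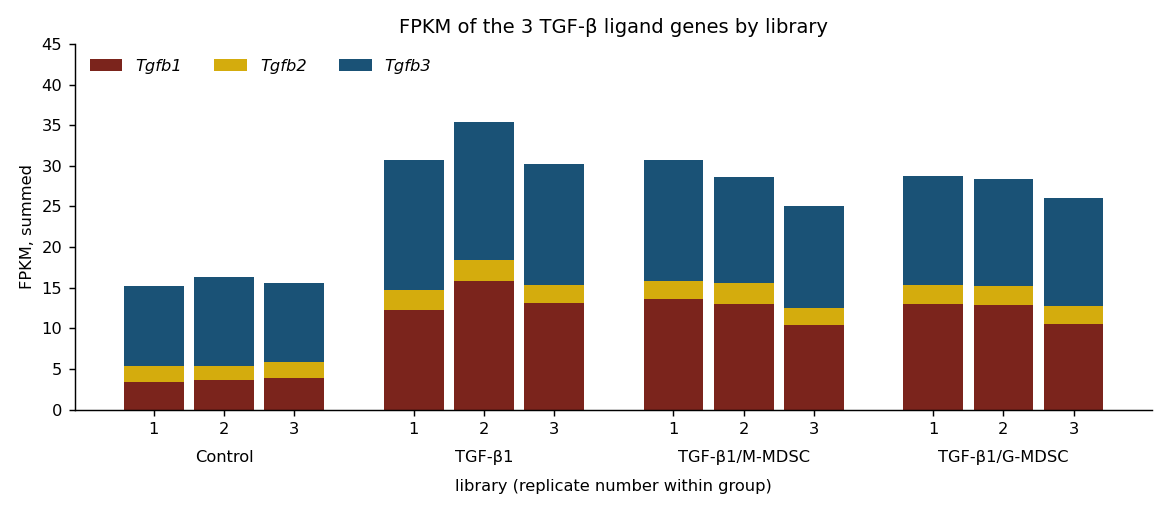
Stacked bars of the FPKM of *Tgfb1*, *Tgfb2* and *Tgfb3* in each of the 12 libraries (vertical axis, from 0; horizontal axis, replicate number within its group). The sum lay between 15.2 and 16.4 FPKM in control MSCs, between 30.2 and 35.4 FPKM with TGF-β1, and between 25.0 and 30.8 FPKM in the supernatant groups, with the *Tgfb1* section larger in every treated library.

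Of the TGF-β signaling receptors, the type II gene fell and the type I gene did not pass. *Tgfbr2* encodes the type II receptor that binds TGF-β first. It had 36.7, 36.2 and 37.5 FPKM in control MSCs and 18.2, 17.4 and 17.4 FPKM with TGF-β1, a fall of 2.0-fold with no overlap (log2 fold change -1.0, standard error 0.039, edgeR adjusted p = 1.65e-08). Its type I partner *Tgfbr1*, the kinase that phosphorylates Smad2 and Smad3, had 5.16, 4.42 and 4.74 FPKM in control MSCs. With TGF-β1 it had 4.55, 4.05 and 3.93 FPKM, and the groups overlapped. The log2 fold change of *Tgfbr1* was -0.14, with a 95% interval from -0.44 to 0.17 (edgeR adjusted p = 0.501). That interval includes no change, and a fall or a rise inside it is not excluded with 3 libraries a group. The level of *Tgfbr2* divided by that of *Tgfbr1* was 7.74 ± 0.556 in control MSCs and 4.24 ± 0.215 with TGF-β1.

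*Acvr1* encodes ALK2, a type I receptor that serves mainly the BMP branch. It had 8.63, 7.16 and 9.17 FPKM in control MSCs and 10.6, 13.3 and 10.4 FPKM with TGF-β1, again without overlap. The rise was 1.43-fold (log2 fold change 0.52, standard error 0.12, edgeR adjusted p = 0.00644).

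The largest change among the 10 genes was in *Tgfbr3*, which encodes betaglycan, a coreceptor that presents TGF-β to the type II receptor and also binds inhibin. The control libraries had 25.1, 22.4 and 23.7 FPKM. With TGF-β1 they had 4.41, 3.03 and 3.84 FPKM, a fall of 6.06-fold (log2 fold change -2.60, standard error 0.13, edgeR adjusted p = 8.61e-08). By size this change ranked 159th of 12016. The other coreceptor gene, *Eng*, which encodes endoglin, had 0.881, 0.781 and 0.635 FPKM in control MSCs and 0.696, 0.656 and 0.697 FPKM with TGF-β1. Those groups overlapped, and its counts were 229 to 371 per library over the 12 libraries. With the filter lowered to 0.5 FPKM, which was decided on with the data at hand, *Eng* had a log2 fold change of -0.11 (95% interval -0.42 to 0.19, edgeR adjusted p = 0.600). The end of *Eng* overlaps *Fpgs*, a gene on the opposite strand with 7.99 to 11.9 FPKM, and reads from the overlap cannot be told apart without strand.

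*Bambi* encodes a transmembrane protein that resembles a type I receptor but lacks the kinase, and it is known as a TGF-β target in several cell types. It had 1.46, 1.92 and 1.65 FPKM in control MSCs and 1.59, 1.19 and 1.27 FPKM with TGF-β1. The groups overlapped, and the log2 fold change was -0.26 with a 95% interval from -0.64 to 0.12 (edgeR adjusted p = 0.293). In bulk RNA, a smaller number of cells of a type and less RNA per cell cannot be told apart, for this gene and for those that fell.

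M-MDSC supernatant was then compared with TGF-β1 alone, to see which of these responses differed when the supernatant was present. The gene *Tgfbr3* rose, and it was the only 1 of the 9 tested that passed, where 4.78% of all genes passed, 2.83% higher and 1.95% lower. Its libraries with M-MDSC supernatant had 5.94, 5.77 and 6.74 FPKM, all above the highest TGF-β1 library at 4.41 FPKM and all far under the lowest control library at 22.4 FPKM. The rise was 1.61-fold (log2 fold change 0.69, standard error 0.12, edgeR adjusted p = 0.00774). In a fit of the 2 groups alone the log2 fold change was 0.70 and the edgeR adjusted p was 0.0635, and over all alternatives the adjusted p ranged from 1.23e-06 to 0.0635.

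The ligands were near their TGF-β1 levels. *Tgfb1* had 13.6, 13.02 and 10.4 FPKM with M-MDSC supernatant, which overlapped the TGF-β1 libraries (log2 fold change -0.18, 95% interval -0.46 to 0.11, edgeR adjusted p = 0.544). *Inhba* had 95.8, 97.0 and 87.3 FPKM, and its log2 fold change was 0.05 (95% interval -0.15 to 0.25). *Tgfb2* had 2.28, 2.52 and 2.07 FPKM and a log2 fold change of -0.07 (95% interval -0.29 to 0.14). The intervals of these 3 genes included no change. *Tgfb3* had 14.9, 13.1 and 12.5 FPKM with a log2 fold change of -0.26, a standard error of 0.077 and an edgeR adjusted p of 0.0979. Its groups overlapped only in that the highest library with supernatant slightly exceeded the lowest with TGF-β1 alone. Without M-MDSC replicate 1, the *Tgfb3* log2 fold change was -0.34 and the edgeR adjusted p was 0.0326, within a range of 0.0326 to 0.286 over the alternatives.

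Receptors other than *Tgfbr3* did not pass. *Tgfbr2* had 16.9, 17.7 and 17.8 FPKM with M-MDSC supernatant, and the 95% interval of its log2 fold change of -0.04 ran from -0.13 to 0.05, the narrowest among the 9 genes. *Tgfbr1* had 4.02, 4.45 and 4.04 FPKM and *Acvr1* had 9.96, 9.95 and 12.03 FPKM, and both overlapped TGF-β1 alone. The log2 fold changes were -0.02 (95% interval -0.33 to 0.28) for *Tgfbr1* and -0.13 (95% interval -0.39 to 0.14) for *Acvr1*. *Eng* had 0.754, 0.681 and 0.735 FPKM. The *Bambi* libraries, at 1.13, 1.18 and 0.814 FPKM, lay under all TGF-β1 libraries, but the log2 fold change of -0.40 did not pass after adjustment (unadjusted p = 0.0432, edgeR adjusted p = 0.28). Ranges without overlap occurred in 10.6% of all genes with lower and 13.4% with higher values.

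With G-MDSC supernatant, compared with TGF-β1 alone, *Tgfbr3* rose as well and *Tgfbr2* fell slightly. These were the 2 of 9 genes that passed, where 5.56% of all genes passed, 3.1% higher and 2.46% lower (372 and 296 genes, against 446 and 216 by library size alone). *Tgfbr3* had 6.19, 7.05 and 7.28 FPKM, above every TGF-β1 library, and rose 1.79-fold (log2 fold change 0.84, standard error 0.12, edgeR adjusted p = 0.00202). *Tgfbr2* had 15.7, 15.8 and 16.8 FPKM against a lowest TGF-β1 library of 17.4 FPKM. Its fall of 1.11-fold (log2 fold change -0.16, standard error 0.039, edgeR adjusted p = 0.0414) did not hold in most alternatives: the edgeR adjusted p was 0.0516 with median-ratio scaling, 0.097 without a scaling factor and 0.157 without G-MDSC replicate 1, and the adjusted p ranged from 0.0146 to 0.164 over all alternatives.

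*Inhba* had its highest libraries in this group, at 109, 99.7 and 116 FPKM, all above those with TGF-β1 alone. The log2 fold change of 0.26 (95% interval 0.05 to 0.46) did not pass after adjustment (edgeR adjusted p = 0.161). *Tgfb3* had 13.4, 13.1 and 13.3 FPKM, under all TGF-β1 libraries, with a log2 fold change of -0.30, a standard error of 0.077 and an edgeR adjusted p of 0.053. *Tgfb3* passed with DESeq2 (adjusted p = 0.017) and without M-MDSC replicate 1 or 3 (0.0284 and 0.0456), within a range of 0.017 to 0.182 over the alternatives. Ranges without overlap occurred in 13.2% of all genes with higher and 9.55% with lower values.

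*Tgfb1* had 12.9, 12.9 and 10.5 FPKM with G-MDSC supernatant (log2 fold change -0.21, 95% interval -0.49 to 0.08), which overlapped TGF-β1 alone. *Tgfb2* had 2.41, 2.38 and 2.20 FPKM (log2 fold change -0.05, 95% interval -0.26 to 0.16). Neither ligand gene passed. *Tgfbr1* had 4.24, 4.38 and 2.90 FPKM, and its log2 fold change of -0.15 had a 95% interval from -0.45 to 0.16. *Acvr1* had 10.2, 9.52 and 9.33 FPKM, under all TGF-β1 libraries, with a log2 fold change of -0.27 that did not pass (edgeR adjusted p = 0.29). *Bambi* had 1.06, 1.32 and 1.07 FPKM and overlapped TGF-β1 alone (log2 fold change -0.26, edgeR adjusted p = 0.528). *Eng* had 0.968, 0.794 and 0.912 FPKM, which was above its TGF-β1 libraries. With the filter at 0.5 FPKM its log2 fold change was 0.37 (95% interval 0.06 to 0.68, unadjusted p = 0.0225, edgeR adjusted p = 0.193), and adjusted p ranged from 0.193 to 0.325 over the 3 settings that tested *Eng*.

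**Figure D3:**
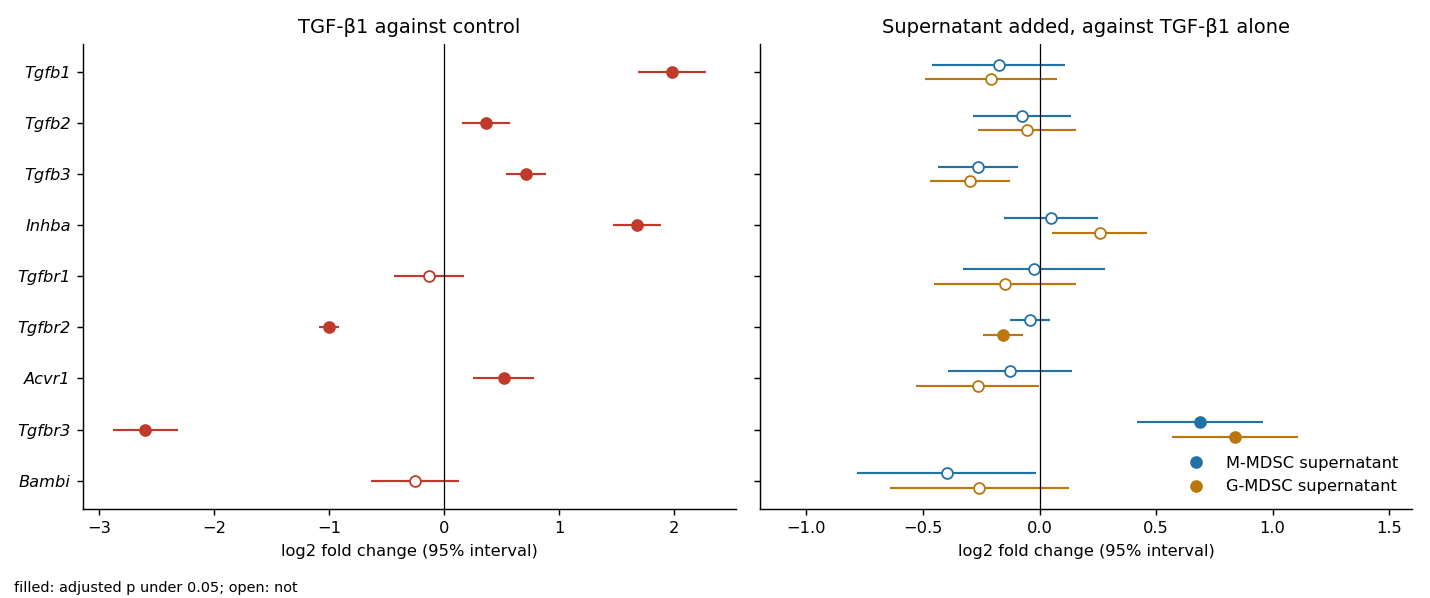
Fitted log2 fold change with its 95% interval (horizontal axes) for the 9 genes tested, with TGF-β1 against control MSCs on the left and each supernatant group against TGF-β1 alone on the right; filled points passed an adjusted p of 0.05. On the left 7 genes passed, from -2.60 for *Tgfbr3* to 1.98 for *Tgfb1*, and on the right the passing points are *Tgfbr3* with both supernatants at 0.69 and 0.84 and *Tgfbr2* with G-MDSC supernatant at -0.16.

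Transcripts listed as markers of other cell types differed between the same groups, and which cells they came from was not tested. *Kap*, *Slc34a1*, *Umod*, *Slc22a6* and *Cdh16*, which are kidney tubule genes, had no count in any library without supernatant, whereas the *Kap* median was 13.1 FPKM with M-MDSC and 47.3 FPKM with G-MDSC supernatant. Of the 10 tubule markers, 6 passed the filter. *Aqp1* went the other way, with medians of 4.19 FPKM with TGF-β1 alone, 3.50 FPKM with M-MDSC and 3.27 FPKM with G-MDSC supernatant. The *Cubn* medians were 0.453, 0.415 and 0.428 FPKM in these groups. The 11 myeloid and MDSC markers summed to 13.6 to 15.8 FPKM with TGF-β1 alone, 20.5 to 25.9 FPKM with M-MDSC and 25.9 to 29.3 FPKM with G-MDSC supernatant, most of it *Cd14*. The lysozyme gene *Lyz2* had a median of 0.0777 FPKM with TGF-β1 alone, 1.68 FPKM with M-MDSC and 1.94 FPKM with G-MDSC supernatant. *S100a9*, a granulocyte and monocyte gene, had no count with TGF-β1 alone, 0.258 to 0.98 FPKM with M-MDSC supernatant and up to 3.40 FPKM with G-MDSC supernatant, where its median library had no count. The leukocyte gene *Ptprc* was at most 0.0157 FPKM in every library. *Ly6g* and *Ly6c2* of the same list were highest in control MSCs, with medians of 1.88 and 1.71 FPKM. The *Ly6g* median was 0.067 FPKM with TGF-β1 alone, 0.048 FPKM with M-MDSC and 0.178 FPKM with G-MDSC supernatant. For *Ly6c2* these medians were 0.0519, 0.166 and 0.238 FPKM, and for *Csf1r* 1.01, 1.03 and 1.26 FPKM. Control MSCs had a myeloid sum of 26.9 to 28.02 FPKM, with a *Cd14* median of 22.8 FPKM. The endothelial markers were at most 0.662 FPKM in sum. The part of tubule and myeloid transcripts in the *Tgfbr3* rise was not tested. Without M-MDSC replicate 3, which had the highest tubule sum, the *Tgfbr3* log2 fold change was 0.62 (edgeR adjusted p = 0.0344, in the range given above). The M-MDSC libraries left in that fit had tubule sums of 36.9 and 45.8 FPKM, so it does not test that part.

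M-MDSC and G-MDSC supernatants were compared with each other, and none of the 9 genes passed in edgeR's quasi-likelihood test, where 0.125% of all genes passed. DESeq2 and limma also called 0 of them, and 2 had an unadjusted p under 0.05. These were *Inhba*, lower with M-MDSC supernatant by a log2 fold change of -0.21 (95% interval -0.41 to -0.0047, unadjusted p = 0.0458, edgeR adjusted p = 0.772), and *Tgfbr2*, at a log2 fold change of 0.12 (95% interval 0.03 to 0.20, unadjusted p = 0.0122, edgeR adjusted p = 0.574). In both genes the 3 libraries of one supernatant did not overlap the 3 of the other, as was the case for 6.03% of all genes in the direction of *Inhba* and 5.97% in that of *Tgfbr2*. *Tgfbr3* overlapped between the supernatants, with a log2 fold change of -0.15 (95% interval -0.42 to 0.12), and so did *Tgfb1*, *Tgfb2* and *Tgfb3*. The libraries of *Eng* with M-MDSC supernatant were all under those with G-MDSC supernatant, and with the filter at 0.5 FPKM its log2 fold change was -0.29 (95% interval -0.60 to 0.01).

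Compared with control MSCs, most of the TGF-β1 pattern was present in both supernatant groups, which share these controls with the first comparison. With M-MDSC supernatant, 8 of the 9 genes passed, 5 higher and 3 lower, where 35.2% of all genes passed, 16.4% higher and 18.9% lower. With G-MDSC supernatant 7 passed, 4 higher and 3 lower, where 34.8% of all genes passed, 16.4% higher and 18.4% lower. *Tgfb1* was 3.50-fold higher than control with M-MDSC and 3.42-fold higher with G-MDSC supernatant (edgeR adjusted p = 1.84e-06 and 2.23e-06). *Inhba* was 3.31-fold and 3.82-fold higher (edgeR adjusted p = 1.98e-07 and 9.88e-08).

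*Tgfb3* was 1.36-fold higher with M-MDSC supernatant and 1.33-fold higher with G-MDSC supernatant than in control MSCs (edgeR adjusted p = 0.00113 and 0.00187). *Tgfb2* was 1.22-fold and 1.24-fold higher (edgeR adjusted p = 0.037 and 0.0272). The M-MDSC call of *Tgfb2* was lost in 6 of 12 other fits (library size alone, upper-quartile scaling, no FPKM filter, both limma fits and the 2 groups alone) and in 5 of the 12 that left out a library, namely control replicate 2 or 3, M-MDSC replicate 1 or 2 or G-MDSC replicate 2, with adjusted p up to 0.137. The G-MDSC call was lost without control replicate 2 or 3 or G-MDSC replicate 1 or 2, with adjusted p up to 0.0833. The summed level of the 3 isoforms was 28.1 ± 2.92 FPKM with M-MDSC and 27.7 ± 1.46 FPKM with G-MDSC supernatant (SD, n = 3). *Tgfb1* made up 43.8% ± 1.84 and 43.7% ± 2.81 of these sums.

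Among the receptors, *Tgfbr2* was 2.06-fold lower than in control MSCs with M-MDSC supernatant and 2.23-fold lower with G-MDSC supernatant (edgeR adjusted p = 1.33e-08 and 6.23e-09). *Tgfbr3* was 3.76-fold and 3.39-fold lower (edgeR adjusted p = 7.16e-07 and 1.38e-06). *Acvr1* passed with M-MDSC supernatant at 1.31-fold (edgeR adjusted p = 0.0268), but not without M-MDSC replicate 3 (adjusted p = 0.103, the highest of a range from 0.00562), without control replicate 2 (0.0909) or with the replicate block (0.0503). With G-MDSC supernatant *Acvr1* did not pass (log2 fold change 0.25, edgeR adjusted p = 0.135). *Tgfbr1* passed in neither group, with log2 fold changes of -0.16 and -0.28 (edgeR adjusted p = 0.416 and 0.141).

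*Bambi*, which did not pass with TGF-β1 alone, was lower than control in both supernatant groups, by 1.58-fold with M-MDSC supernatant (log2 fold change -0.66, edgeR adjusted p = 0.013) and by 1.43-fold with G-MDSC supernatant (log2 fold change -0.52, edgeR adjusted p = 0.0403). Without control replicate 2 those adjusted p-values were 0.0557 and 0.15, the highest over the alternatives. The G-MDSC call of *Bambi* was also lost with no FPKM filter or filterByExpr, and without control replicate 3, TGF-β1 replicate 3 or G-MDSC replicate 1 or 3. The direct tests against TGF-β1 alone, given above, did not pass for *Bambi* in either group, so a difference between TGF-β1 with and without supernatant was not shown.

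By the rule of the study, a fold above 2 or below 0.5 with an unadjusted p under 0.05, *Tgfb1*, *Inhba*, *Tgfbr2* and *Tgfbr3* passed in each of the 3 comparisons with control MSCs. The share of all genes that passed it was 6.74% for TGF-β1 alone, 6.98% when M-MDSC supernatant was added and 6.8% when that of G-MDSCs was. None of the 9 genes passed it between the treated groups, where 2.18% and 2.17% of all genes did so for M-MDSC and G-MDSC supernatant against TGF-β1 alone and 0.549% between the supernatants.

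The other genes of the pathway were read from 5 lists, and the response to TGF-β1 alone is given first. The counts below stand against 16.1% of all genes higher and 17.9% lower in that comparison. The list on the latent complex, storage and activation of TGF-β held 21 genes, some of which only bind TGF-β or limit its release. Of these, 17 were tested, 13 rose and 1 fell, with a median log2 fold change of 0.54. *Ltbp2*, a microfibril protein of the latent TGF-β binding protein family, rose from 12.2 ± 1.5 to 44.4 ± 1.07 FPKM (log2 fold change 1.92, edgeR adjusted p = 9.84e-08). *Fbn1*, which encodes the fibrillin that anchors latent complexes, had a log2 fold change of 1.15 (edgeR adjusted p = 8.38e-06), and the integrin gene *Itgav* one of 0.69 (edgeR adjusted p = 0.00224). *Mmp9*, a gelatinase able to release TGF-β, had a log2 fold change of 2.43 from 0.214 ± 0.0929 to 1.13 ± 0.0915 FPKM. It reached 1 FPKM only in libraries that received TGF-β1, so that it passed the filter through them alone. *Mmp9* is counted among the 13 that rose, but its rise is not read as support.

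Of 17 genes for receptor partners and receptor turnover, all were tested, 6 rose and 3 fell, with a median log2 fold change of 0.02. *Cd109*, a membrane coreceptor that dampens TGF-β signaling, rose from 4.15 ± 0.15 to 16.9 ± 0.273 FPKM (log2 fold change 2.08, edgeR adjusted p = 4.56e-10). *Pmepa1*, a Smad-binding feedback inhibitor, rose from 26.0 ± 0.894 to 84.4 ± 2.42 FPKM (log2 fold change 1.76, edgeR adjusted p = 2.61e-09). The endocytic adaptor gene *Dab2* fell by 0.79 on the log2 scale (edgeR adjusted p = 9.84e-07), and *Vasn*, which encodes a TGF-β-binding membrane protein, rose by 0.46 (edgeR adjusted p = 0.00016).

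The activin, nodal and GDF list held 22 names, of which 21 were in the table and 8 were tested; 3 rose and 2 fell, with a median log2 fold change of 0.07. *Inhbb*, which encodes the βB chain of activin, moved opposite to *Inhba*, from 1.40 ± 0.206 to 0.311 ± 0.0451 FPKM (log2 fold change -2.11). It passed the filter through the control libraries alone. *Inhbb* is counted among the 2 that fell, but its test is not read as support. *Fstl3*, a secreted antagonist that binds activin, rose from 3.66 ± 0.788 to 11.9 ± 0.787 FPKM (log2 fold change 1.76, edgeR adjusted p = 2.45e-06). The divergent family ligand gene *Gdf15* rose by 1.59 (edgeR adjusted p = 0.0166), and *Acvr1b*, the type I receptor gene for activin, fell by 0.64 on the log2 scale (edgeR adjusted p = 0.000514).

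Of 5 other type I and type II receptor genes, 3 were tested and all 3 rose, with a median log2 fold change of 0.55. These were the BMP receptor genes *Bmpr1b* at 1.08, *Bmpr2* at 0.55 and *Bmpr1a* at 0.20 (edgeR adjusted p = 8.84e-06, 0.0113 and 0.0163). Of 13 genes for SMADs and corepressors, 12 were tested, 7 rose and 2 fell, with a median log2 fold change of 0.32. The corepressor gene *Skil* rose by 1.53 (edgeR adjusted p = 0.0136) and *Smad5*, a BMP-branch SMAD, by 0.99 (edgeR adjusted p = 0.00335), whereas *Smad3*, a direct substrate of TGF-β receptor I, fell from 28.9 ± 1.41 to 13.9 ± 0.0576 FPKM (log2 fold change -0.99, edgeR adjusted p = 3.12e-07) and the inhibitory *Smad6* fell by 0.83 (edgeR adjusted p = 1.33e-05).

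Between the supernatant groups and TGF-β1 alone, 8 of the 57 genes tested in the 5 lists passed with M-MDSC supernatant, 1 higher and 7 lower, where 2.83% of all genes were higher and 1.95% lower. With G-MDSC supernatant 13 of the 57 passed, 3 higher and 10 lower, where 3.1% of all genes were higher and 2.46% lower. These counts ran from 3 to 11 and from 4 to 15 over the alternatives. The M-MDSC count was 3 without TGF-β1 replicate 1 or 2 or M-MDSC replicate 2 or 3, and 5 without TGF-β1 replicate 3 or G-MDSC replicate 1. The G-MDSC count was 5, 4 and 8 without TGF-β1 replicates 1, 2 and 3, and 6 and 5 without G-MDSC replicates 1 and 2. Of the genes named here, *Nrp1* and *Smurf2* passed in all 24 other fits with both supernatants, *Fstl1* did so with M-MDSC supernatant, and *Cd109* and *Thbs1* with G-MDSC supernatant. The calls lost in most of the 24 fits were *Ltbp3* with M-MDSC supernatant, which passed in 6, and *Ltbp4* and *Pmepa1* with G-MDSC supernatant, which passed in 9 and 8. The remaining named calls passed in 12 to 19. In the latent complex list, 3 of 17 fell with M-MDSC supernatant, namely *Fbn1* at -0.43, *Thbs1* at -0.25 and *Ltbp3* at -0.23 (log2 fold changes, edgeR adjusted p = 0.0353, 0.0279 and 0.0424). With G-MDSC supernatant, 2 of that list rose and 4 fell, including *Mmp9* at 1.01, *Dcn*, a proteoglycan that binds TGF-β, at 0.45, *Thbs1*, an activator of latent TGF-β, at -0.37 and *Ltbp4* at -0.30 (edgeR adjusted p = 0.0306, 0.0351, 0.00278 and 0.0376). The medians of the list were -0.12 and -0.17, against -0.013 and -0.014 over all genes.

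Among the receptor partners, 1 rose and 2 fell with M-MDSC supernatant, and 1 rose and 4 fell with G-MDSC supernatant, with list medians of -0.07 and -0.09. *Nrp1*, a coreceptor gene, fell by 0.53 and by 0.51 on the log2 scale (edgeR adjusted p = 0.00675 and 0.00671). *Smurf2*, which encodes a ubiquitin ligase for the receptors, fell by 0.22 and by 0.23 (edgeR adjusted p = 0.00326 and 0.00197), and *Cd109* rose further by 0.19 and 0.21 (edgeR adjusted p = 0.0235 and 0.0108). *Pmepa1* fell by 0.22 with G-MDSC supernatant (edgeR adjusted p = 0.0348). In the activin list 0 genes rose and 2 fell with each supernatant, *Fstl1* at -0.23 and -0.17 (edgeR adjusted p = 0.00215 and 0.0114) and *Inhbb* at -0.88 and -0.92. *Inhbb* went from 0.311 to 0.172 and 0.167 FPKM, all under the filter level, which it reached only in control MSCs. It counts among the 8 and 13 genes called, but its tests are not read as support. The list medians were -0.08 and -0.13. No gene of the 3 BMP-side receptors or the 12 SMAD genes passed in either comparison, with medians of -0.13 and -0.08, and of -0.05 and 0.03. Between M-MDSC and G-MDSC supernatants, edgeR called 0 of the 57 genes, where 0.125% of all genes passed.

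**Figure D4:**
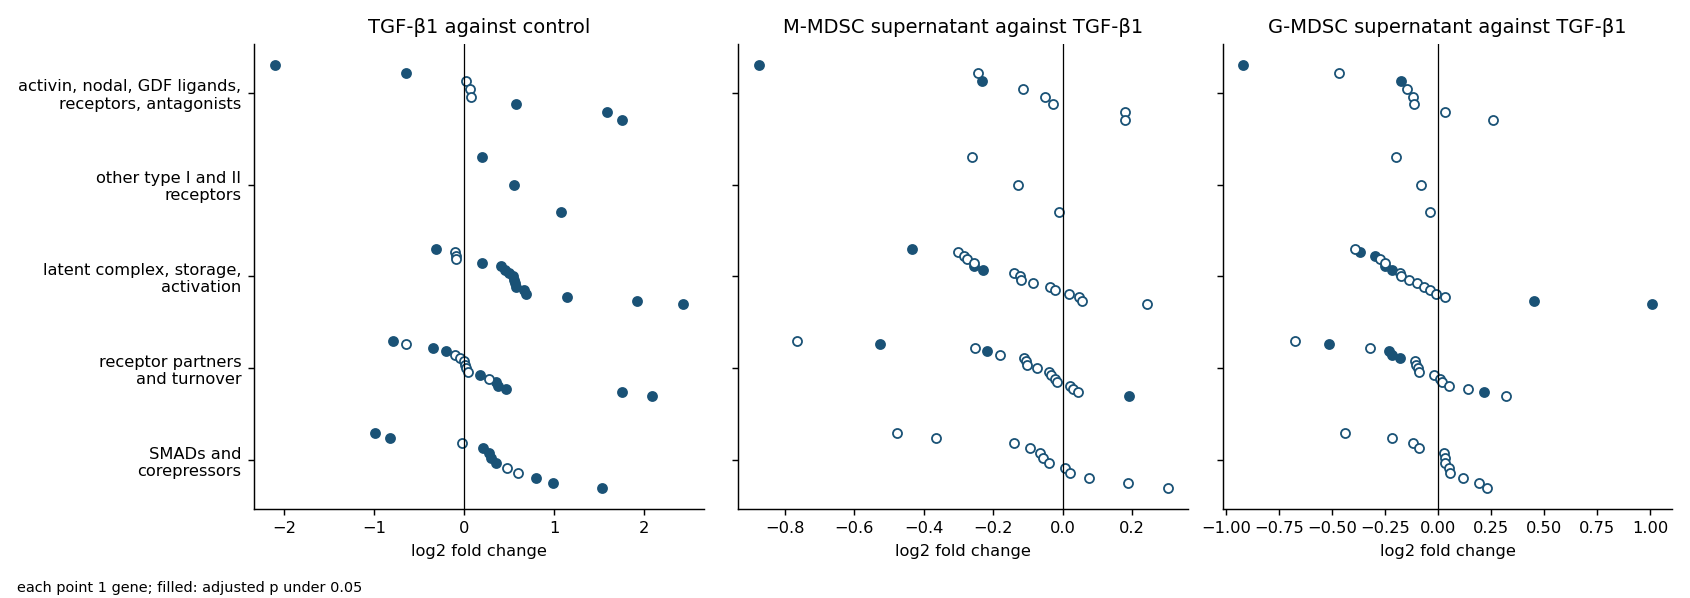
Fitted log2 fold change (horizontal axes, a separate scale for each panel) of each tested gene in the 5 pathway lists, with filled points for an adjusted p under 0.05. With TGF-β1 against control, 13 of 17 latent complex genes rose, where 16.1% of all genes did, and of the 57 genes shown, 8 points are filled for M-MDSC and 13 for G-MDSC supernatant, where 4.78% and 5.56% of all genes passed. The lists were chosen with earlier results of these data known. *Mmp9*, among the 13 that rose, passed the filter only through libraries that received TGF-β1.

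Genes whose pattern over the 12 libraries was most like that of a member were looked up by Pearson's r of log2 CPM (counts scaled to library size), as a description only. The libraries of a group share their treatment, and how much of each r lies between groups was not computed. *Inhba* was most like *Frmd6* (r = 0.998), *Ccbe1* (0.995) and *Col27a1* (0.994), and *Tgfb1* was most like *Dusp5*, *Nfil3* and *Creb3l1* (each 0.991). *Tgfb3* went with *Col4a1* (0.981), *Fads2* (0.974) and *Loxl1* (0.97). Of the receptors, *Tgfbr2* went with *Itga3* (0.997), *Cavin2* and *Fam107b* (both 0.995), and *Tgfbr3* with *Slc16a1* (0.996), *Serpine2* (0.993) and *Xdh* (0.992). The genes most like *Tgfb2*, *Tgfbr1*, *Acvr1* and *Bambi* reached 0.938, 0.902, 0.909 and 0.924 (*4930431P22Rik*, *Zbtb25*, *Cdc42bpa* and *AA414768*).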

How the data were processed

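Poly(A) RNA of 12 MSC libraries was sequenced. Per the submitters' processing notes, reads were handled with cutadapt 1.9, HISAT2 2.0.4 and StringTie 1.3.4d. The authors deposited raw counts per gene beside the FPKM they derived, with 0.0001 as the FPKM of a gene that had no count. The tool that made the counts and its strand setting are not given in the sources used here. Gene positions matched the GENCODE M21 annotation of GRCm38 for 94.2% of shared identifiers. Low counts piled up at multiples of 4 (44.3% of values from 1 to 12), so an alternative divided the counts by 4.

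Deposited counts of genes with at least 1 FPKM in at least 3 libraries were scaled by TMM and fitted in edgeR 4.0.16 (R 4.3.3) as 1 fit of 4 groups. The quasi-likelihood F test was two-sided, with Benjamini-Hochberg adjustment over the 12016 genes tested. A gene was called at an adjusted p under 0.05. Alternatives used limma 3.58.1 on log2(FPKM + 1) and log2(FPKM + 0.1), DESeq2 1.42.0, other scalings and filters, a replicate block, the 2 groups alone, the study's rule (a fold above 2 or below 0.5 with an unadjusted p under 0.05) and leaving out each library. Upper-quartile scaling and the filter at 0.5 FPKM were added after the data were seen.

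The 10 genes, the 5 pathway lists, the marker lists and the tests were chosen with earlier results of these data known. From each list and comparison, up to 4 genes with the largest absolute log2 fold changes among those called are named. Promoter sequences are from RefSeq, GRCm38.p6. With 1437 to 7256 counts for *Tgfb1* and 359 to 909 for *Bambi* per library, the spread between libraries sets the precision. No 2 libraries of a group agreed within sampling noise. Python 3.11.15 and pandas 2.3.3 were used for the tables.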

Additional observations from a re-analysis of the deposited data

How the results depend on the processing

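The count of family genes called with TGF-β1 against control was 6 to 7 when each library was left out in turn and 7 in every other fit, but 4 by the study's rule. For M-MDSC supernatant against TGF-β1 alone it was 1, 0 in a fit of the 2 groups alone, 0 by the study's rule and 1 to 2 with a library left out. For G-MDSC supernatant it was 2, and 1 with median-ratio scaling, library size alone, no FPKM filter, filterByExpr, the filter at 0.5 FPKM, both limma fits and the 2 groups alone, since *Tgfbr2* was lost; it was 3 with DESeq2, which also called *Tgfb3*, 0 by the study's rule and 1 to 3 with a library left out. Against control it was 4 by the study's rule in both supernatant groups, and 5 to 8 (M-MDSC) and 5 to 7 (G-MDSC) with a library left out. Between the supernatants it was 0 throughout.

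Among the 9 family genes, directions turned only in changes that had not passed the test, some of them as large as -0.15. With 1 library left out in turn, log2 fold changes ran from -0.0085 to 0.098 for *Inhba* and from -0.073 to 0.042 for *Tgfbr1* with M-MDSC supernatant against TGF-β1 alone, and limma at a pseudocount of 0.1 gave 3.81e-05 for *Tgfbr1*. With G-MDSC supernatant they ran from -0.099 to 0.017 for *Tgfb2* and from -0.25 to 0.017 for *Tgfbr1*. Between the supernatants they ran from -0.059 to 0.14 for *Tgfb1*, -0.094 to 0.047 for *Tgfb2*, -0.046 to 0.088 for *Tgfb3*, -0.041 to 0.23 for *Tgfbr1* and -0.24 to 0.0084 for *Bambi*.

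In the 5 pathway lists, 35 to 41 of the 57 genes passed with TGF-β1 against control over the alternatives. Of those named there, *Bmpr1a*, *Gdf15* and *Skil* passed in 18, 22 and 22 of 24 fits and the others in all 24. No called list gene changed direction in the 3 comparisons read.

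Over all genes, the study's rule called 810, 262, 261, 66, 839 and 817 genes in the 6 comparisons, against 4082, 574, 668, 15, 4234 and 4187. M-MDSC supernatant against TGF-β1 gave 351 in the 2 groups alone and 355 without TGF-β1 replicate 2. Between the supernatants the count was 38 with limma at a pseudocount of 1 and 16 at 0.1, 41 in the 2 groups alone, 121 with DESeq2 and 9 to 47 with a library left out.

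Replicate numbers did not pair the libraries. Same-numbered residuals had a mean correlation of 0.0017 over 18 pairs, and 3 of 12 libraries correlated best with their own number. With a replicate block the G-MDSC count was 1, *Tgfbr2* having an edgeR adjusted p of 0.0695, *Acvr1* with M-MDSC supernatant against control had 0.0503, and 8 genes in all differed between the supernatants. Depth was not varied, and 3 libraries a group limit the smaller changes.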
